A study of Mus musculus with 4 samples.

Results

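The 10 genes described here were Zbtb17, which encodes MIZ-1 itself, and 9 genes of the MYC network, namely Myc, Mycn, Max, Mxd1, Mxd4, Mxi1, Mnt, Mlx and Mga, out of 55413 annotated mouse genes. They were chosen by name, and every deposited MIZ-1 peak in their promoters or gene bodies was taken, where a promoter ran from 2000 bp before to 1000 bp after any of the gene's annotated transcript starts. This gave 15 of the 34209 peaks in MIZ-1WT and 16 of the 78357 peaks in MIZ-1DPOZ. Chromatin immunoprecipitation and sequencing (ChIP-seq) with the MIZ-1 antibody H-190 had been done on B220+ splenocytes, a fraction made up mainly of B cells. MIZ-1WT cells came from mice with wild-type MIZ-1. MIZ-1DPOZ cells carried MB1-Cre and a Miz-1 floxPOZ allele, and Cre driven by the Cd79a (Mb1) promoter removes the part of the gene that encodes the POZ domain in the B lineage and leaves a truncated protein with its zinc fingers. All mouse lines were on a C57BL/6 background, and whether the MIZ-1WT mice carried MB1-Cre is not given in the sources used here. Each genotype had 1 ChIP library and 1 input library, whether cells of several mice were pooled is not given in the sources used here, and a peak list holds no expression with which to check the cell type. No value below therefore has a replicate, no test between genotypes was possible, and all intervals cover counting error only. The study describes a different mix of B cell subsets in MIZ-1DPOZ spleens, whose part in these values was not tested, and in bulk cells fewer bound cells and less binding per cell cannot be told apart.

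MYC and MYCN are activators that bind DNA only as dimers with MAX, preferably at the E-box, a palindromic motif. MXD1, MXD4, MXI1 and MNT also pair with MAX and bring repressors to the same motif, MGA pairs with MAX within a Polycomb complex, and MLX is the partner of a parallel set of proteins and can also pair with some MXD proteins and MNT. MIZ-1 is a POZ domain zinc finger protein that activates some promoters by itself and represses them when MYC joins it, and the POZ domain lets it form homodimers. Whether MIZ-1 lies at the genes of its own partners, and at its own gene, is what the peaks at these genes describe.

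Peaks were compared by their summit pileup, the number of sequenced fragments that cover the highest base of a peak, which was recovered from the deposited scores. The MIZ-1DPOZ library was 1.34 times as deep as the MIZ-1WT library, so ratios of pileups were divided by that value. The smallest pileup called as a peak was 5 for MIZ-1WT and 6 for MIZ-1DPOZ, with medians over the lists of 9 and 12. In the peak lists as a whole 48.2% of MIZ-1WT and 43.1% of MIZ-1DPOZ summits lay in sequence present more than once in the genome, whereas all 31 peaks at the named genes were in single-copy sequence. Most of the 31 were promoter peaks, and the like share over promoter peaks alone is not given here. Whether this is particular to the named genes therefore cannot be told.

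The sites around which the results turn are shown as the summit base with 100 bases to each side, read from the GRCm38 (mm10) genome on the strand of the gene, 5′ to 3′. Capitals mark CG dinucleotides, which are dense at most of these sites, except in the Mnt sequence, where they mark the E-box. Each label names the place of the summit base, and a window can run past it. The first 5 are sites where a MIZ-1WT and a MIZ-1DPOZ peak overlapped near a start or, for the second Zbtb17 site, in a coding exon. The window of that site runs past the end of the exon into the next intron.

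Zbtb17 intron, chr4:141444985-141445185, plus strand, MIZ-1DPOZ summit: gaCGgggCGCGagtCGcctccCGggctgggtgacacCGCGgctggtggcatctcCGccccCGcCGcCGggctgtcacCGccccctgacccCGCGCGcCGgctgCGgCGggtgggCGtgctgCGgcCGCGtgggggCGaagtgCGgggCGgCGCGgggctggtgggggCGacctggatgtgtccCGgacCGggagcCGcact

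Zbtb17 coding exon, chr4:141463692-141463892, plus strand, MIZ-1WT summit: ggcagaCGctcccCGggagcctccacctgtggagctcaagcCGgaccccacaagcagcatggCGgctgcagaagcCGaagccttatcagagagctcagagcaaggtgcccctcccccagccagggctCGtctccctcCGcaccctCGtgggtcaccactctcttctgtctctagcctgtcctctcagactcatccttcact

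Mycn coding exon, chr12:12939892-12940092, minus strand, MIZ-1WT summit: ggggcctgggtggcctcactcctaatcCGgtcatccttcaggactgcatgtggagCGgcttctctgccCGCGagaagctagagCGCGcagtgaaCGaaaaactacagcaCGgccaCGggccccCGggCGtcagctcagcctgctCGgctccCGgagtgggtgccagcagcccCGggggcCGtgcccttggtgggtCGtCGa

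Max intron, chr12:76961708-76961908, minus strand, MIZ-1WT summit: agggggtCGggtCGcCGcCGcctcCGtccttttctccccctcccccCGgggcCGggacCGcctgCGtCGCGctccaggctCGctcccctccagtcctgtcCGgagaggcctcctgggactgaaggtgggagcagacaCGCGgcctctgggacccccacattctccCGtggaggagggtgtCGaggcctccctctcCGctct

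Mlx first coding exon, chr11:101087339-101087539, plus strand, MIZ-1WT summit: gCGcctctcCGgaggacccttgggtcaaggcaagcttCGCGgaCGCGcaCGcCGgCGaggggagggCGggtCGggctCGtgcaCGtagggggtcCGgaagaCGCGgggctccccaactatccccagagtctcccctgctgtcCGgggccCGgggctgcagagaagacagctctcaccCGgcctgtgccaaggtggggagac

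The next is the intron of Mxi1 where peaks of both lists lay within annotated repeat sequence. It is followed by the promoter sites of Mxd1 and Mnt, which were in the MIZ-1WT list only.

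Mxi1 intron, chr19:53349056-53349256, plus strand, MIZ-1WT summit: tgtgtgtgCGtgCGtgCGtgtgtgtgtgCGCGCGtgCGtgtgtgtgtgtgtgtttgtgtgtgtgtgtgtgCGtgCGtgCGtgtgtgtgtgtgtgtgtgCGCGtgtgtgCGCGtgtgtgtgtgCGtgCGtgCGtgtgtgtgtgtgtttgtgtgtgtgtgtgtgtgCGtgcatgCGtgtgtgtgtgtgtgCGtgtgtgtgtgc

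Mxd1 upstream, chr6:86669472-86669672, minus strand, MIZ-1WT summit: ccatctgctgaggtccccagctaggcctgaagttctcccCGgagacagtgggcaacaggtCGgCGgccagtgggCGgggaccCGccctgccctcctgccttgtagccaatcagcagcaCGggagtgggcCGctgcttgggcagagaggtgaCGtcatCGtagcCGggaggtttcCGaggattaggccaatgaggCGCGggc

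Mnt upstream, chr11:74830723-74830923, plus strand, MIZ-1WT summit: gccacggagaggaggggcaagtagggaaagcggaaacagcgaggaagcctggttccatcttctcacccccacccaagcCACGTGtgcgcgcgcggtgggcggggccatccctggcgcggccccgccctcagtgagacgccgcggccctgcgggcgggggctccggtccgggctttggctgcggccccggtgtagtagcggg

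MIZ-1WT peaks lay at the promoters of 8 of the 10 genes, all but Mxd4 and Mga. Among 21938 protein-coding genes 30.9% had such a peak, and among all annotated genes 16.9% did. MIZ-1DPOZ peaks lay at the promoters of 6 genes, Zbtb17, Mycn, Max, Mxd4, Mxi1 and Mlx, beside 48.7% of protein-coding genes and 28.9% of all annotated genes. The MIZ-1WT count was thus above its background share and the MIZ-1DPOZ count was near to its own. Zbtb17, Mycn, Max, Mxi1 and Mlx had promoter peaks in both lists, as had 26.7% of protein-coding genes, and in each of the 5 a peak of one list overlapped one of the other by at least 1 bp, as in 23.6% of protein-coding genes. Myc, Mxd1 and Mnt had promoter peaks of MIZ-1WT alone, a class that held 4.22% of protein-coding genes. Mxd4 was in the MIZ-1DPOZ list only, a class with 22.0% of them, and Mga was in neither, as were 47.1%.

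**Figure D1:**
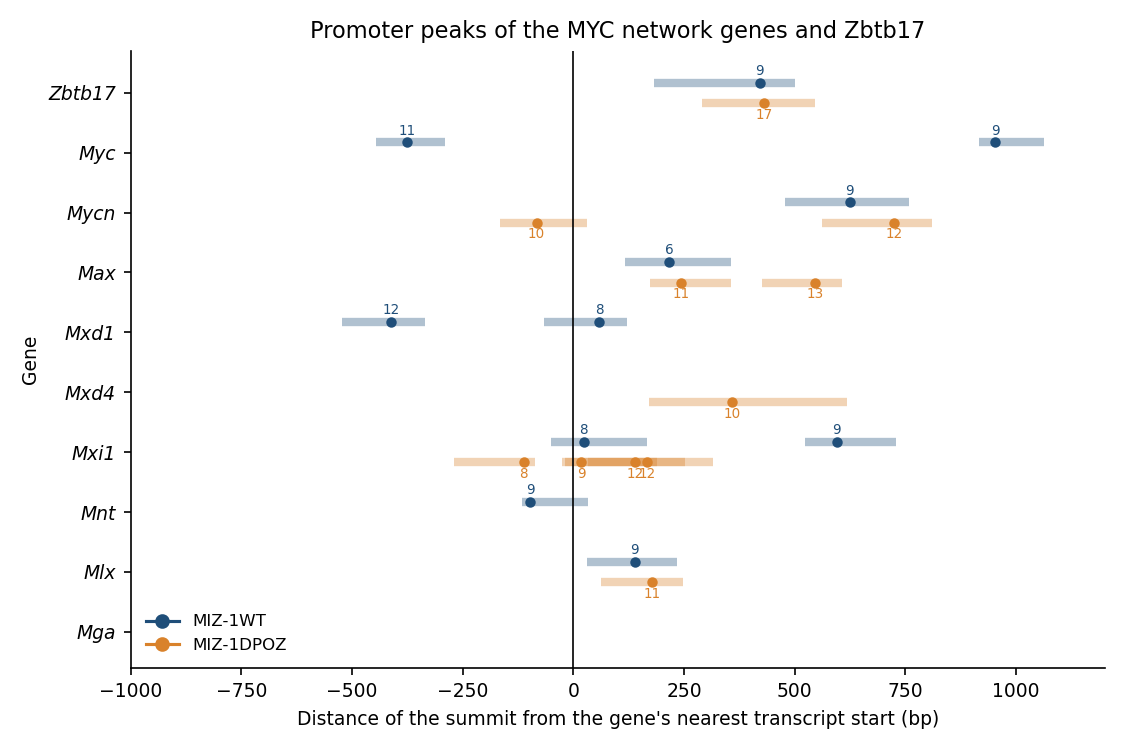
Promoter peaks of the 10 genes, with each summit (dot) and peak extent (bar) placed by distance in bp from the nearest transcript start of that gene, and the summit pileup in fragments beside each dot; blue is MIZ-1WT and orange is MIZ-1DPOZ. Zbtb17, Mycn, Max, Mxi1 and Mlx have peaks of both colours, Myc, Mxd1 and Mnt only blue ones, Mxd4 only an orange one and Mga none.

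Most of these peaks were weak. The 15 MIZ-1WT peaks had pileups of 6 to 12 fragments (median 9) and fold enrichments of 3.74 to 6.34 over the local background, and the 16 MIZ-1DPOZ peaks had pileups of 8 to 17 (median 11.5) and fold enrichments of 3.52 to 7.67. With −log10 q required to reach 5, a stricter limit than that of the deposited lists, the MIZ-1WT list kept a promoter peak at Mxd1 only, where 9.78% of protein-coding genes kept one. The MIZ-1DPOZ list kept Zbtb17, Mycn, Max and Mxi1, 4 of the 10, where 33.3% of protein-coding genes kept one. No gene kept overlapping promoter peaks, beside 6.05% of protein-coding genes. In the MIZ-1WT list 5 of the 8 genes had a strongest promoter pileup of 9, which is the median of all 6773 protein-coding genes with a promoter peak in that list. In the MIZ-1DPOZ list the median over 10683 such genes was 13, and Mxd4, Mlx, Mycn and Mxi1 lay below it.

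**Figure D2:**
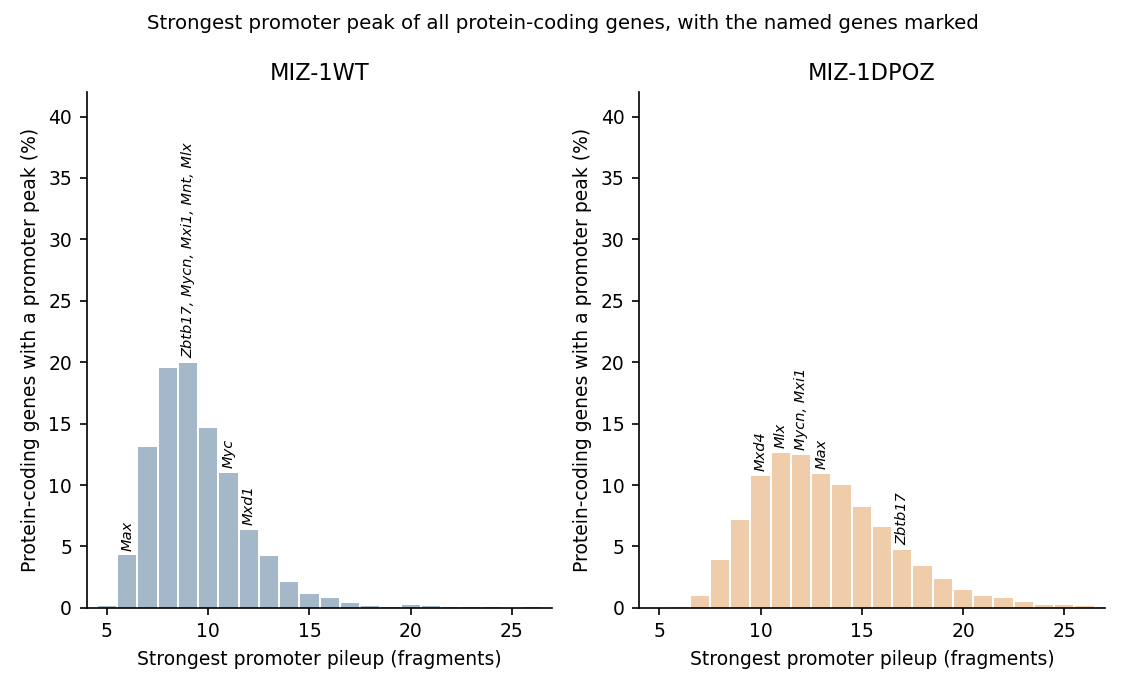
Distribution of the strongest promoter pileup over protein-coding genes with a promoter peak (bars, percent of those genes; the few genes above 27 fragments are not drawn), in MIZ-1WT at left and MIZ-1DPOZ at right, with the named genes written over their bars. In MIZ-1WT 5 genes stand at the median of 9, and in MIZ-1DPOZ Zbtb17 at 17 is the only named gene above 13.

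Zbtb17 (chr4:141444654-141467930, plus strand), the gene of MIZ-1, carried a peak in the same 2 places in both lists. The promoter peak covered chr4:141444836-141445154 in MIZ-1WT and chr4:141444945-141445200 in MIZ-1DPOZ, within an intron, with summits 421 and 431 bp after the only annotated start. The pileup was 9 fragments (95% interval 4.12 to 17.1) in MIZ-1WT and 17 (9.90 to 27.2) in MIZ-1DPOZ, with fold enrichments of 5.38 and 7.67. It was the highest pileup at the 10 genes, and 83.5% of protein-coding genes with a MIZ-1DPOZ promoter peak had a lower one. After scaling for depth the MIZ-1DPOZ pileup was 1.41 times that of MIZ-1WT (exact binomial 95% interval 0.594 to 3.59), so that a difference in either direction is within counting error. Of the windows around all 31 summits the Zbtb17 promoter window of MIZ-1WT was the richest in G and C, at 82.6%, with 34 CG dinucleotides.

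The other Zbtb17 site was 19.1 kb downstream, at chr4:141463702-141463849 in MIZ-1WT and chr4:141463667-141463869 in MIZ-1DPOZ. The summits were 10 bp apart and fell in exon 6 of 16, at codons 219 and 215 of the 794 codons of the longest coding transcript that covers them. The POZ domain is at the amino terminus of MIZ-1 and the zinc fingers follow it, and the floxed exons are not named in the sources used here, so whether this exon neighbours the deleted segment was not determined. The pileup was 8 in MIZ-1WT and 15 in MIZ-1DPOZ, a scaled ratio of 1.40 (0.557 to 3.81). The MIZ-1WT peak lay wholly inside the MIZ-1DPOZ peak. At this site 63.7% of the MIZ-1WT window was G or C and it held 8 CG dinucleotides, far fewer than the promoter site shown beside it.

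Myc (chr15:61985391-61990374, plus strand), the founding activator of the network, had 2 peaks, both in MIZ-1WT and both in introns. One covered chr15:61986977-61987131, with its summit 375 bp before the nearest of the 5 annotated starts and 1656 bp after the first, and a pileup of 11 (5.49 to 19.7). The other covered chr15:61988337-61988484, 953 bp after its nearest start and 2984 bp after the first, with a pileup of 9 (4.12 to 17.1). The first of these was above 71.6% of MIZ-1WT promoter pileups of protein-coding genes. No MIZ-1DPOZ peak lay in the gene or its promoter, and the nearest MIZ-1DPOZ summit was 66.5 kb beyond a Myc start, nearer to Pvt1. A peak in 1 list only shows that the other list made no call there, and at pileups this small it gives no measure of absence. The local background at the 2 Myc peaks, 1.52 and 1.58 fragments, was the highest of the MIZ-1WT peaks described here. Genes with several starts have wider promoter windows. Among protein-coding genes with 4 or more starts 49.2% had a MIZ-1WT and 67.1% a MIZ-1DPOZ promoter peak.

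Mycn (chr12:12936093-12941914, minus strand), the paralogue of Myc, was in both lists. The shared site was in exon 2, at codon 134 of 462 for the MIZ-1WT summit and codon 168 for the MIZ-1DPOZ summit, 101 bp apart. These summits were 624 and 725 bp after the nearest annotated start, and 1922 and 2023 bp after the first. With promoters limited to 500 bp from a start, Mycn had no overlapping promoter peaks. MIZ-1WT had 9 fragments there (chr12:12939859-12940137) and MIZ-1DPOZ 12 (chr12:12939805-12940055), a scaled ratio of 0.994 (0.385 to 2.67). A further peak of 10 fragments in MIZ-1DPOZ (chr12:12941883-12942080) had its summit 83 bp before the first start and no MIZ-1WT partner. Of that window 55.7% was repeat-masked. Myc and Mycn thus differed in that Mycn alone had MIZ-1DPOZ peaks, which is a description of 2 lists without replicates.

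Max (chr12:76937269-76962201, minus strand), whose protein is the partner shared by MYC and its antagonists, had the weakest MIZ-1WT peak of the 10 genes. It covered chr12:76961670-76961909 in an intron, 217 bp after the nearest start, with 6 fragments (2.202 to 13.1) and a −log10 q of 1.76, and only 0.177% of protein-coding genes with a MIZ-1WT promoter peak had a lower one. MIZ-1DPOZ had 11 fragments at the overlapping site (chr12:76961669-76961853), a scaled ratio of 1.37 (0.463 to 4.50). Its stronger peak, of 13 fragments, was at chr12:76961419-76961598, 72 bp outside the MIZ-1WT peak and likewise in an intron. The ratio between the strongest peak of each list, which are not at one site, was 1.62 (0.573 to 5.18).

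Mlx (chr11:101087277-101092207, plus strand), the partner protein of the parallel network, had 1 peak in each list at nearly the same place. The summits were 39 bp apart, 139 and 178 bp after the nearest start, in exon 1 at codons 38 and 51 of 298, a stretch that is intronic in other transcripts. The pileup was 9 in MIZ-1WT (chr11:101087331-101087535) and 11 in MIZ-1DPOZ (chr11:101087362-101087548), a scaled ratio of 0.911 (0.343 to 2.49). Mlx and Zbtb17 were the only genes whose overlapping promoter peaks had a fold enrichment of at least 5 in both lists.

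**Figure D3:**
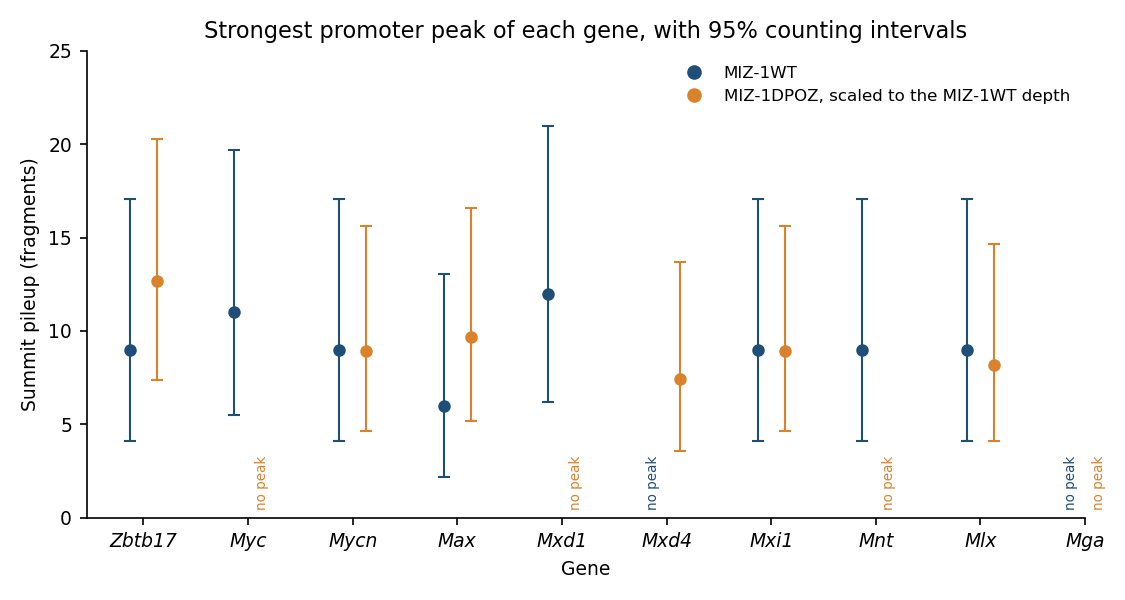
Summit pileup in fragments of the strongest promoter peak of each gene in MIZ-1WT (blue) and in MIZ-1DPOZ after division by the depth ratio of 1.34 (orange), with exact Poisson 95% intervals as bars. At Zbtb17, Mycn, Max, Mxi1 and Mlx the intervals of the 2 genotypes overlap, and "no peak" marks a list without a promoter peak at the gene. At Max and Mxi1 the strongest peaks of the 2 lists are at different sites.

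Over the 5 genes with promoter peaks in both lists the scaled ratio of the strongest pileups ran from 0.911 at Mlx to 1.62 at Max, with a median of 0.994, and all 5 intervals include 1. Over all 5847 protein-coding genes with promoter peaks in both lists the median was 1.08, with quartiles of 0.870 and 1.33. Each of the 5 intervals reached from 0.594 or lower to 2.49 or higher, so that a difference in binding within these bounds was not detectable at this depth. At Max and Mxi1 the strongest peaks of the 2 lists were at different sites. Between overlapping promoter peaks the ratios were 1.41 at Zbtb17, 0.994 at Mycn, 1.37 at Max, 1.12 at Mxi1 and 0.911 at Mlx.

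The genes of the repressors differed among themselves. Mxd1 (chr6:86647042-86669161, minus strand), a MAX partner that rises as cells stop dividing, had 3 peaks in MIZ-1WT and none in MIZ-1DPOZ. The strongest, chr6:86669495-86669684, lay 411 bp before the only start, with 12 fragments (6.20 to 20.96), a fold enrichment of 6.34 and a −log10 q of 6.14, the strongest MIZ-1WT peak at the 10 genes. A second, chr6:86669039-86669228, with 8 fragments, had its summit in the 5′ UTR 59 bp after the start, and another, chr6:86650310-86650462, with 9, was in the 3′ UTR. The nearest MIZ-1DPOZ summit was 26.4 kb from the start, outside the gene.

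Mnt (chr11:74830920-74845725, plus strand), a repressor present in most cells, had peaks in both lists at different sites. In MIZ-1WT a peak of 9 fragments (4.12 to 17.1) covered chr11:74830804-74830952, with its summit 97 bp before the start. In MIZ-1DPOZ no peak was called at the promoter, and 11 fragments lay over chr11:74836439-74836929, in exon 2 at codon 99 of 591, and 16 (9.15 to 26.0) over chr11:74843339-74843551 in the 3′ UTR. The gap between the MIZ-1WT peak and the nearer MIZ-1DPOZ peak was 5487 bp. The MIZ-1DPOZ peak in the 3′ UTR had 1 CG dinucleotide in its window, the fewest of all 31.

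Mxi1 (chr19:53310518-53375810, plus strand) had the most peaks, 4 in MIZ-1WT and 6 in MIZ-1DPOZ, and also the most annotated starts, 8, so that its promoter window covered 9541 bp against a median of 3002 bp over protein-coding genes. Among protein-coding genes with 4 or more starts 49.2% had a MIZ-1WT and 67.1% a MIZ-1DPOZ promoter peak, against 26.7% and 44.6% of those with 1 start. Overlapping promoter peaks covered chr19:53329758-53329974 in MIZ-1WT, with 8 fragments, and chr19:53329788-53330060 in MIZ-1DPOZ, with 12, a scaled ratio of 1.12 (0.420 to 3.15), and both summits fell in a 5′ UTR that is intronic in other transcripts. The remaining promoter peaks were in 1 list each, 9 fragments at chr19:53313589-53313795 in MIZ-1WT, and 12, 9 and 8 fragments in MIZ-1DPOZ at chr19:53310550-53310834, chr19:53329436-53329650 and chr19:53330139-53330322.

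A second group of Mxi1 peaks lay in an intron 38.4 to 38.9 kb after the first start. MIZ-1WT had 9 fragments at chr19:53348978-53349291 and 8 at chr19:53349358-53349506, and MIZ-1DPOZ had 13 at chr19:53348772-53349067 and 11 at chr19:53349196-53349441. Each peak overlapped at least 1 peak of the other list, with scaled ratios of 0.911 to 1.08 over the 3 overlapping pairs. The sequence there, of which 1 window is shown above, is a simple repeat of TG interrupted by CG, and these dinucleotides covered 95.5% to 97.5% of the bases of the 4 windows, where the other 27 windows had at most 56.7%. Windows in which TG, or CA as read on the other strand, together with CG covered at least 80% made up 0.433% of all MIZ-1WT and 0.313% of all MIZ-1DPOZ peaks. The 4 windows were repeat-masked over their whole length, as were 44.4% and 38.3% of all peaks, but single-copy by their 50-base sequences. How well read pairs are placed in such a repeat was not tested.

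**Figure D4:**
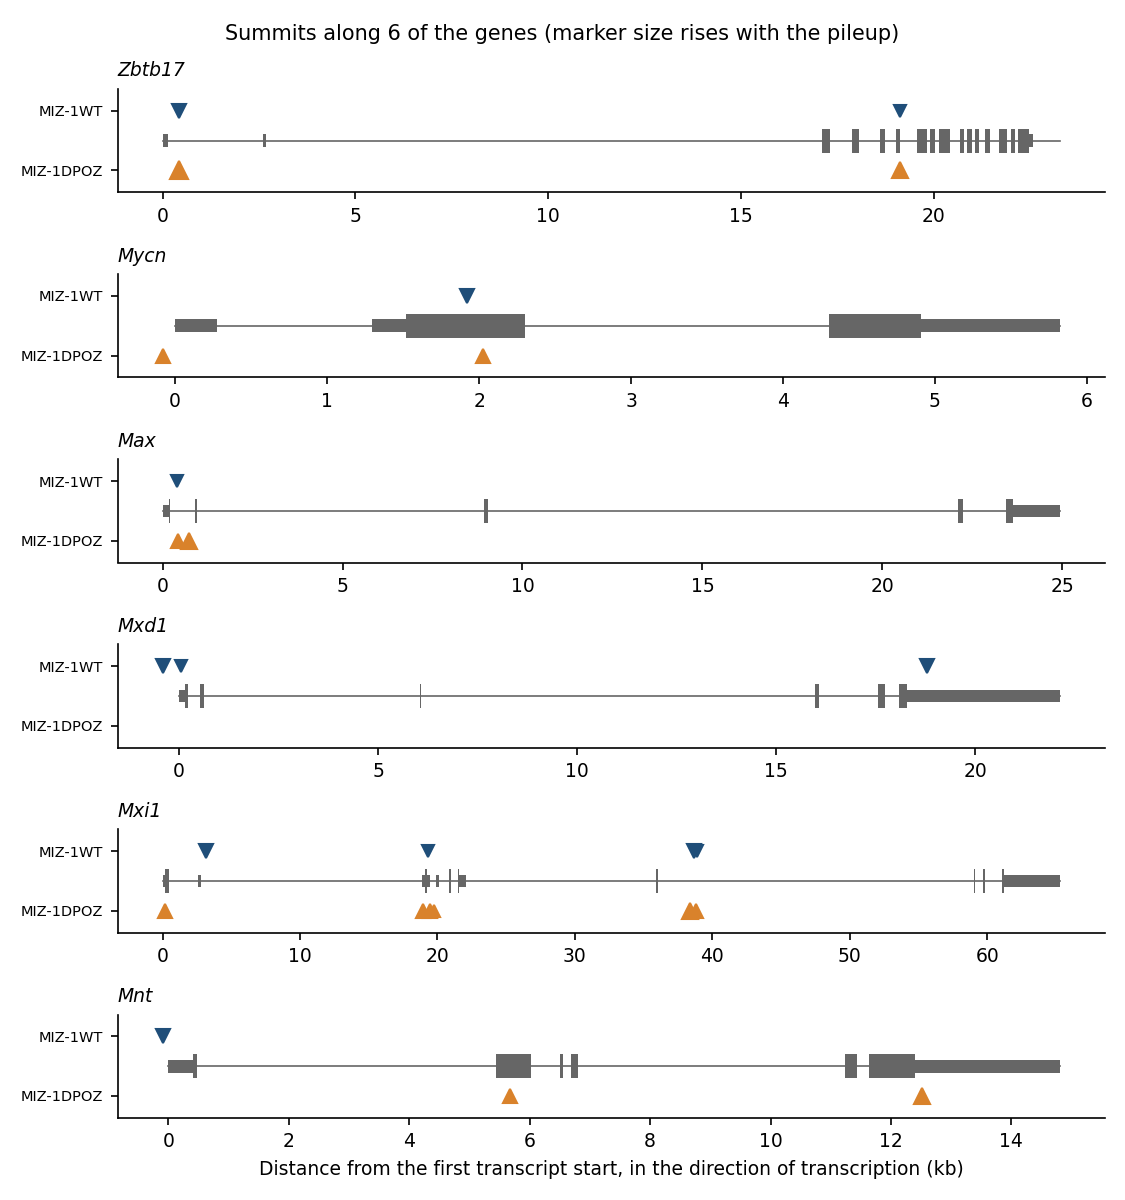
Summits of MIZ-1WT (blue, above) and MIZ-1DPOZ (orange, below) along Zbtb17, Mycn, Max, Mxd1, Mxi1 and Mnt, by distance in kb from the first transcript start in the direction of transcription; tall boxes are coding exons, low boxes untranslated exons, and larger markers have higher pileups. The 2 Zbtb17 sites and the Mxi1 intron site near 38.6 kb recur in both lists, whereas the Mnt summits of the lists are apart and Mxd1 has MIZ-1WT summits only.

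Mxd4 (chr5:34173883-34187720, minus strand), another MAX-binding repressor, was the only gene with a peak in MIZ-1DPOZ alone. The peak was the second widest of the 31, 450 bp (chr5:34187091-34187540), with its summit 358 bp after the nearest start in exon 2, at codon 47 of 209. Its pileup of 10 (4.80 to 18.4) was above only 12.1% of MIZ-1DPOZ promoter pileups. The nearest MIZ-1WT summit was 106 kb away.

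Mga (chr2:119897228-119969581, plus strand), which encodes the largest MAX partner, had no peak of either list in its promoter or anywhere in its 72.4 kb. Of 3510 protein-coding genes at least as long, 59 (1.68%) had no peak of either list, against 30.4% of all protein-coding genes. The nearest summits were 24.0 kb before the start in MIZ-1WT and 74.3 kb before it in MIZ-1DPOZ. A peak below the calling threshold would not be seen, so this gives no measure of binding at Mga.

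The peaks of the 10 genes overlapped the other list less than promoter peaks did in general in MIZ-1WT, and about as much in MIZ-1DPOZ, as a description without a test. Of 11 MIZ-1WT promoter peaks 5 overlapped a MIZ-1DPOZ peak, and over all 7584 MIZ-1WT promoter peaks of protein-coding genes 73.3% did. Of 11 MIZ-1DPOZ promoter peaks 5 overlapped a MIZ-1WT peak, beside 41.2% of 13152. Counting gene bodies too, 8 of 15 and 8 of 16 peaks overlapped the other list, among them the peaks in the Mxi1 intron repeat. The like share over all peaks of each list is not given here, so these counts cannot be called high or low. Of the 22 promoter peaks none had the start of another gene nearer to its summit than a start of its own gene, so that none was shared with a closer neighbour.

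In base composition the windows resembled those of other promoter peaks. The median GC content was 72.6% over the 11 MIZ-1WT promoter windows of these genes and 73.6% over those of all protein-coding genes, and for MIZ-1DPOZ it was 70.1% and 70.6%. The median number of CG dinucleotides was 19 and 23 in MIZ-1WT, and 20 and 20 in MIZ-1DPOZ. High GC content also affects how well fragments are amplified and sequenced, and its part in these peaks was not tested.

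The E-box, searched as CACGTG, which reads the same on both strands, was found at 1 of the 31 summits, that of the Mnt promoter in MIZ-1WT, where it began 119 bp before the start, at base 79 of the sequence shown above, and crossed the upstream edge of the peak. It was in 4.63% of all MIZ-1WT and 3.79% of all MIZ-1DPOZ promoter windows of protein-coding genes. In RefSeq promoters of GRCm38.p6, 250 bases before to 50 after a start, 12 sequences matched 9 of the genes, and Myc had no entry. There the motif occurred in 4 of the 12 sequences, 1 promoter each of Mxd4, Mnt, Mlx and Max, and in 7.15% of all 32851 promoters. Apart from Mnt, the E-boxes at Mxd4, Mlx and Max were thus outside the windows around the MIZ-1 summits. The motifs ATCGAT and, on either strand, GGTAATC, both of which occur in described MIZ-1 binding sequences, were in none of the 31 windows. ATCGAT was in 0.435% of MIZ-1WT and 0.449% of MIZ-1DPOZ promoter windows of protein-coding genes. GGTAATC was in 0.171% and 0.289% of them. The absence of a match says only that these letters are not in the window.

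The peaks of 36 other genes of the pathway, from 5 lists, are set beside these. Promoter peaks were found at 21 of them (58.3%) in MIZ-1WT, at 28 (77.8%) in MIZ-1DPOZ, and overlapping peaks at 19 (52.8%), while 6 had none. These shares, at the limits of the deposited lists, were above the 30.9%, 48.7% and 23.6% of all protein-coding genes, with no test. With −log10 q required to reach 5 in both lists, 3 of the 36 genes kept overlapping promoter peaks, among them Aurka and Yaf2. Of all protein-coding genes 6.05% did, so at that limit the count is too small to call high. Of the 4 other MAX and MLX network genes 1 had a MIZ-1WT and 2 had a MIZ-1DPOZ promoter peak. Of the 10 partners of MGA in its Polycomb complex, PRC1.6, 5 and 9 did, although Mga had none. Of 9 cofactors of MYC and MXD proteins 5 and 6 did, of 8 genes that act on the stability of MYC 7 and 7, and of 6 partners of MIZ-1 4 and 4. Huwe1 stands in the last 2 lists.

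At Aurka and Yaf2 both overlapping peaks reached a −log10 q of 5. Aurka, the mitotic kinase that stabilises MYCN, had 34 fragments at its strongest promoter peak in MIZ-1WT and 18 in MIZ-1DPOZ, with fold enrichments of 15.2 and 7.48, where no MIZ-1WT peak at the 10 genes exceeded 12 fragments. Yaf2, a subunit of Polycomb complexes of this type, had 13 fragments at its strongest promoter peak in each list, and the weaker peak of its overlapping pair had a −log10 q of 5.40. No gene of the remaining 3 lists met this limit.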

How the data were processed

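MIZ-1 ChIP-seq was measured in B220+ splenocytes of 2 genotypes, with 4 libraries in all, of which the 2 ChIP libraries have a peak list each. Per the study's methods, the authors used Trimmomatic on the read pairs, mapped to mm10 (GRCm38) and called peaks with MACS2. The deposited files are narrowPeak lists, 1 per genotype, and how the input libraries entered the calling is not given in the sources used here. The submitters' processing notes name Bowtie2 2.2.6 and MACS2 2.1.0, whereas the study's methods name bwa and another release of MACS2, and this conflict was not resolved. The q-value cutoff and the handling of duplicates are not given in the sources used here. The deposited values per peak are its position and summit, the fold enrichment (a ratio) at the summit over the local background, the −log10 of a p-value and of a q-value, and an integer score made from the −log10 q. The deposited score column was not used further. The smallest deposited −log10 q was 1.03 (MIZ-1WT) and 1.01 (MIZ-1DPOZ). Input libraries and reads were not analysed here, so depths are known only as a ratio.

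Summit pileup and local background were solved from fold enrichment and −log10 p under the formulas of MACS2 with a tolerance of 0.005, which gave whole pileups for 100% of peaks. The depth ratio of 1.34 came from the most frequent background value over the smallest peak width (0.860 over 148 bp and 1.348 over 173 bp). Genes and starts were those of the GENCODE basic annotation of mm10 (55413 genes, 77221 starts). Intervals are 95% exact Poisson (pileups) or exact binomial (ratios) and cover counting error only. Single-copy summits were those where 5 sequences of 50 bases nearby occurred, by their median, at 1 place of the genome. Repeats were read from soft-masking within 100 bp of the summit.

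All 10 genes were named, and of the other pathway lists at most 3 genes each whose overlapping promoter peaks had a −log10 q of at least 5 in both lists, of which 1 gene is not reported here. A neighbouring gene was to be named where its start was nearer to a promoter summit. Genes and lists were chosen with earlier results of these data known. Alternatives were other limits on q and fold enrichment, equal numbers of peaks, other windows and other definitions of overlap. Scripts ran in Python 3.11.15 (pandas 2.3.3, numpy 2.4.6, numba 0.67.0, scipy 1.17.1), with figures from matplotlib 3.10.9.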

Additional observations from a re-analysis of the deposited data

How the results depend on the processing

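No paired analysis was possible because there was a single ChIP library of either genotype, and for the same reason no library could be left out. With −log10 q limited to 5 or more, genes with a MIZ-1WT promoter peak fell from 8 to 1, those with overlapping peaks from 5 to 0, and the peaks at the 10 genes from 15 to 1 in MIZ-1WT and from 16 to 7 in MIZ-1DPOZ. Over all protein-coding genes 9.78% kept a MIZ-1WT promoter peak and 6.05% kept overlapping ones at that limit. In the whole lists 71.6% of MIZ-1WT and 41.5% of MIZ-1DPOZ peaks lay below it. At a fold enrichment of at least 5, MIZ-1WT promoters numbered 4, overlapping ones 2, and peaks 6 in MIZ-1WT and 7 in MIZ-1DPOZ. With the MIZ-1DPOZ list cut to its strongest 34209 peaks, MIZ-1DPOZ promoters numbered 2 (Zbtb17 and Max), overlapping ones 1 (Zbtb17) and MIZ-1DPOZ peaks 5. These settings leave fewer peaks by construction. For the fold limit and the equal numbers of peaks the shares over all genes are not given here, so those falls are not particular to the 10 genes. Overlap by summits within 100 bp left 3 genes, Zbtb17, Max and Mlx. In the other 24 recomputed counts, among them narrower windows, the nearest start only, single-copy summits and a −log10 q of at least 2, the count was within 1.5 times the reported one, and the 10 recomputed ratios stayed within their counting intervals. Pileups of 6 to 17 fragments set the precision throughout.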
